A study of Mus musculus with 3 samples.

Results

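The genes described here encode fibroblast growth factors (FGFs), platelet-derived growth factors (PDGFs), vascular endothelial growth factors (VEGFs) and their receptor tyrosine kinases. They were taken by symbol: every gene named Fgf or Fgfr followed by a number, the genes Pdgfa, Pdgfb, Pdgfc, Pdgfd, Pdgfra and Pdgfrb, and the genes Vegfb, Vegfc, Pgf, Flt1, Kdr and Flt4. The rule used no measured value and gave 38 of 20142 genes, namely 26 of the FGF, 6 of the PDGF and 6 of the VEGF group, read by 55 of 26581 named probes. Transcripts were measured in 3T3-L1 cells, an established clonal mouse line of preadipocytes, fibroblast-shaped cells that fill with lipid after adipogenic induction. Cells were collected 2, 8 and 20 days after induction, with no other treatment or genotype named in the labels, and the study was set up to follow expression as fat cells enlarge. Each day was 1 Agilent 1-colour array of total RNA, so no difference between days could be tested. The line is 1 clone, and no uninduced sample was analysed here.

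FGFs bind receptors of the FGFR family together with heparan sulfate chains, except for the hormone-like members, which need a Klotho protein as coreceptor. PDGF dimers act on fibroblasts and mural cells through PDGFRα and PDGFRβ, and adipocyte precursors are often marked by these receptors. VEGF-type ligands act mostly on endothelial cells through the receptors encoded by Flt1, Kdr and Flt4, which makes adipocytes better known as a source of these ligands than as their target.

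Levels are log2 processed intensities from which the 75th percentile of the array's non-control probes was subtracted, so that 0 stands for an intensity of 662, 636 and 927 on days 2, 8 and 20. A gene was called detected where the scanner software marked its probe well above background, and the lowest such levels were -5.70, -5.76 and -5.91. The error beside a difference is a technical standard deviation (SD), estimated from 399 probes printed repeatedly on each array. For a probe with several spots the SD was divided by the square root of their number, so the error is that of their mean. This error covers spots of an array, and the spread between cultures is unknown. Each array held 44397 spots, and spots well above background made up 55.3% to 56.9%. Adipocyte markers were detected for 11 of 12 genes on day 2 and for 12 of 12 on days 8 and 20. For 6 of the 11 markers measured on days 2 and 8, the day 8 level exceeded that of day 2 by 2-fold or more. The reverse held for 0 of them. Adipoq (adiponectin) differed by 3.83 ± 0.07 (technical SD) over this interval, and by -0.72 ± 0.07 between days 8 and 20. Cebpa (-0.40 ± 0.07), Fabp4 (-0.05 ± 0.07) and Cidec (0.02 ± 0.07) were among those short of 2-fold between days 2 and 8.

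In all, 24 of the 38 genes were detected on at least 1 day and 18 on all 3 days, which is 63.2% and 47.4% of the members against 66.8% and 58.6% of all genes. Detection was uneven between the families. Of the 26 FGF genes 14 were detected on some day, against 5 of 6 PDGF and 5 of 6 VEGF genes. Receptors were detected more often than ligands, with 8 of 9 receptors and 14 of 25 ligands on at least 1 day. The 14 members not well above background on any day were Fgf3, Fgf4, Fgf5, Fgf6, Fgf9, Fgf12, Fgf13, Fgf15, Fgf16, Fgf17, Fgf20, Fgf22, Pdgfd and Flt4. Flt4 encodes the receptor for VEGF-C, whose own transcript was detected on every day.

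**Figure D1:**
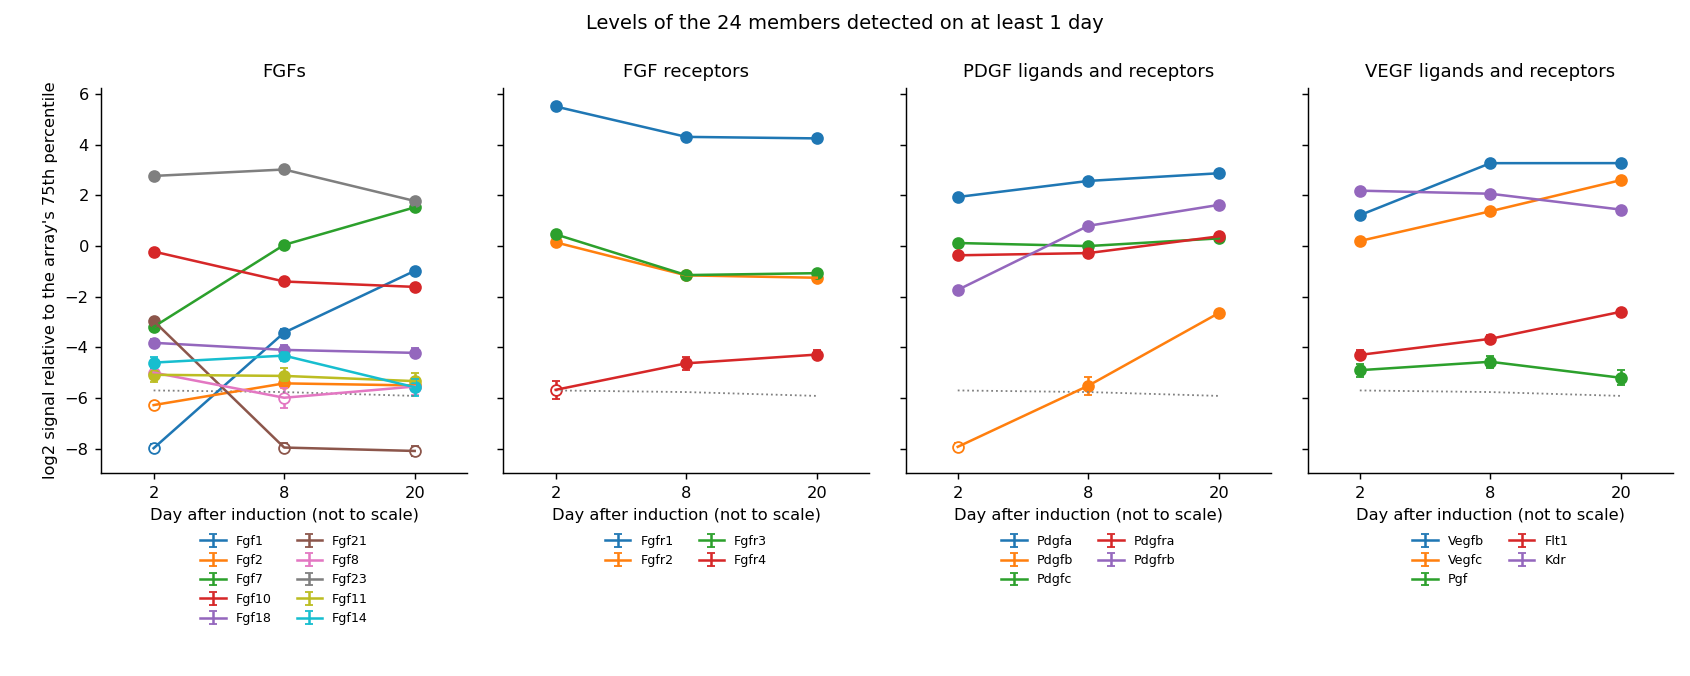
Levels of the 24 detected members on days 2, 8 and 20, as log2 signal relative to the array's 75th percentile, with 1 array per day, bars for the technical SD, filled points where the probe was well above background and open points where it was not. The dotted line joins the lowest level well above background on each array (-5.70, -5.76 and -5.91). Fgf7, Vegfc and Pdgfrb were higher on each later day, and Fgfr1, Fgfr2 and Fgfr3 were lower on day 8 and stayed near that level on day 20.

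Between day 2 and day 8, 18 members could be measured, of which 4 were higher by 2-fold or more and 4 lower by as much. Among all 12045 genes measured on both days the shares were 13.8% higher and 12.9% lower, and 22.2% of members lay in each direction. The median difference was 0.17 over the members and -0.06 over all genes. The higher members were Fgf7, Pdgfrb, Vegfb and Vegfc, and the lower ones were Fgf10, Fgfr1, Fgfr2 and Fgfr3. Another 4 members were detected on day 8 only, and 2 of them had a bound of at least 2-fold, with 39.3% of such genes past that bound over the whole array. These were Fgf1 and Fgfr4. That count of 2 was 1 under median scaling, 1 with the mean over probes and 0 with normexp background correction of the raw median signals. Here and below, normexp added an offset of 50 to every signal, which by itself makes fold differences of dim probes smaller. Of the 2 members detected on day 2 only, Fgf8 and Fgf21, 1 had a bound of at least 2-fold, against 30.3% of such genes.

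Between day 8 and day 20, 22 members were measured, and 5 of them were at least 2-fold higher, where 3.58% of all measured genes were. These were Fgf1, Fgf7, Pdgfb, Vegfc and Flt1, which make up 22.7% of the measured members. Only Fgf14 and Fgf23 were at least 2-fold lower, against 1.74% of all genes. No member was detected on only 1 of these days, while of all genes detected on day 20 only 24.9% had a bound of at least 2-fold, and of those detected on day 8 only 12.8%. The split of 5 higher to 2 lower was 5 to 1 under quantile normalization and cyclic loess, 6 to 2 under median scaling and 8 to 0 when the arrays were scaled on spike-in probes, where the median over all genes was 0.62 in place of -0.05. Between day 2 and day 20, 5 of 18 measured members were at least 2-fold higher (15.5% of all genes) and 4 lower (17% of all genes). Under spike-in scaling 0 members were 2-fold lower over that span, against 675 of all 11888 measured genes. In that comparison 3 members had bounds of at least 2-fold higher (55.4% of such genes) and 1 at least 2-fold lower (33.2%), and with normexp the 3 became 2. The comparisons of day 8 with day 2 and of day 20 with day 8 share the day 8 array.

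**Figure D2:**
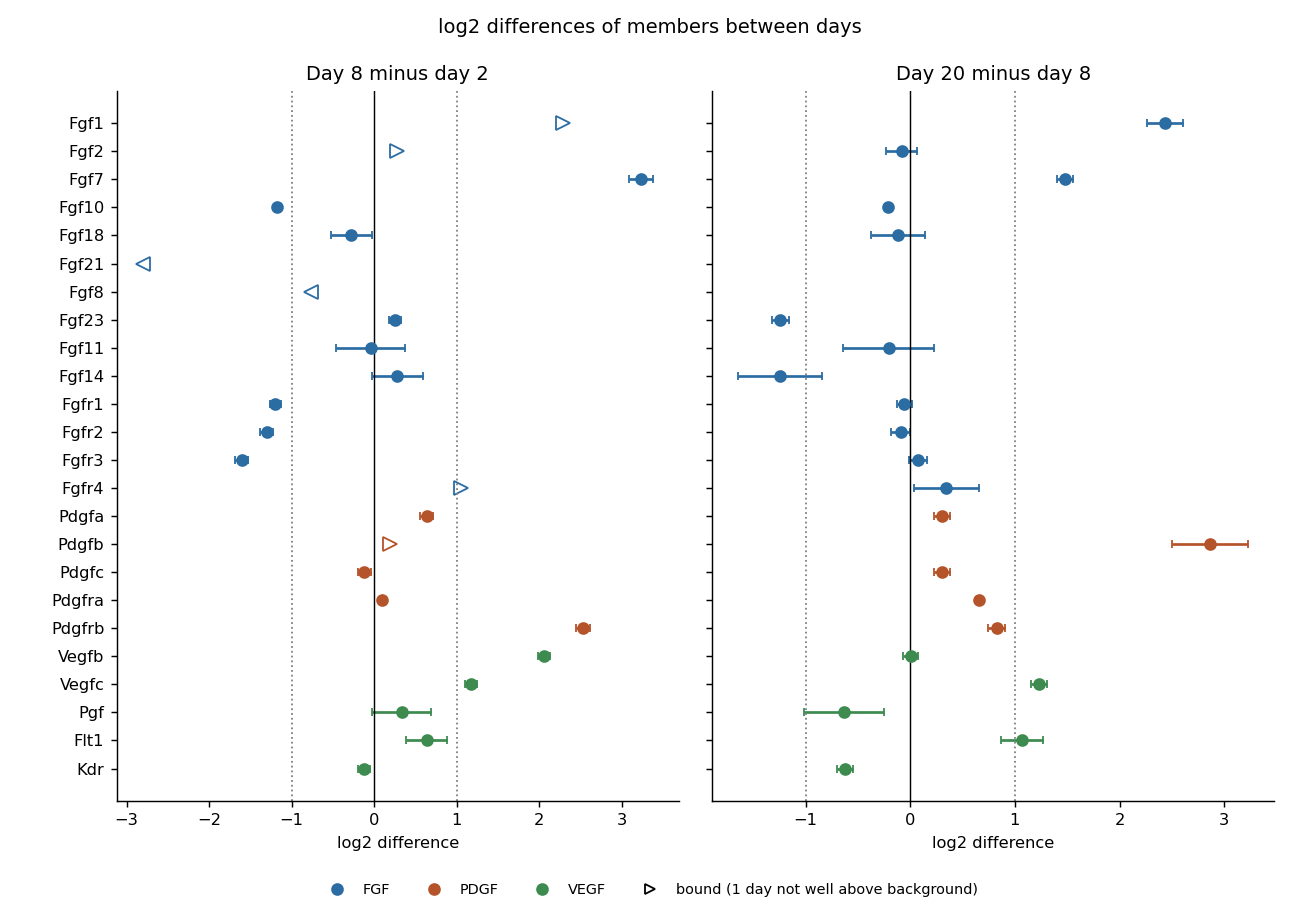
log2 differences of the 24 detected members between days 2 and 8 (left) and days 8 and 20 (right), with bars for the technical SD and dotted lines at 2-fold. Triangles mark bounds where only 1 of the 2 days was well above background. Fgf7 had the highest measured difference on the left (3.23) and Pdgfb on the right (2.87).

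Upstream sequence is shown for 4 of the 7 members that lay at least 4-fold apart between some pair of days, all with a sole RefSeq promoter entry. They are the FGF ligand with the largest measured difference, the hormone-like ligand detected on day 2 alone and the pair of VEGF-type ligands. Fgf1, Pdgfb and Pdgfrb, also at least 4-fold apart, are not shown here. Each run is the 250 bases before the annotated start in RefSeq (GRCm38.p6), 5′ to 3′ on the gene's strand. The runs lie at chr2:126034408-126034657 (plus strand, Fgf7), chr7:45615491-45615740 (minus strand, Fgf21), chr19:6987652-6987901 (minus strand, Vegfb) and chr8:54077282-54077531 (plus strand, Vegfc). Capitals mark matches to the motifs named after the sequences.
Fgf7: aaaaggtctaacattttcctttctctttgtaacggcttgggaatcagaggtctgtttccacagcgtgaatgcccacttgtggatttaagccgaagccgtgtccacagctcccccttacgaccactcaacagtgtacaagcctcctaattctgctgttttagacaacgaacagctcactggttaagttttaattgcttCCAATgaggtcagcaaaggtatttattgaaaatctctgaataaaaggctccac
Fgf21: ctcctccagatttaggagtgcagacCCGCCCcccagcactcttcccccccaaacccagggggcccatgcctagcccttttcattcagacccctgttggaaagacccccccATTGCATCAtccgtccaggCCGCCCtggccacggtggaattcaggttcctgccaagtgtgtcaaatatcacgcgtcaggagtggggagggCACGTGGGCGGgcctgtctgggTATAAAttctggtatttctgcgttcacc
Vegfb: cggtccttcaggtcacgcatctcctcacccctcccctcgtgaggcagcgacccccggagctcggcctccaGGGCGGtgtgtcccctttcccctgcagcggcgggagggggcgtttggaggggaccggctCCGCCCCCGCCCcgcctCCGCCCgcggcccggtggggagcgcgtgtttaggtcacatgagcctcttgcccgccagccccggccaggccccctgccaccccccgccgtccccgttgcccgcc
Vegfc: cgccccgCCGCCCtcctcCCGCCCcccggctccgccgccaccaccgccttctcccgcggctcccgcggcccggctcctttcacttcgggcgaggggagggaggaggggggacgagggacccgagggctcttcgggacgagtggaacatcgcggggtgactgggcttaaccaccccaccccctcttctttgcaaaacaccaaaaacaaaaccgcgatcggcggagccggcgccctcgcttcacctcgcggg

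The 4 windows differ in base composition: G and C made up 43.6% of the Fgf7 window, 59.6% of that of Fgf21, 76.4% of that of Vegfb and 71.6% of that of Vegfc, with a median of 52.4% over 32851 promoters. The motifs searched on both strands were TATAAA (12.4% of all promoters), GGGCGG (32.7%), CCAAT (33.8%), ACGTG (16.6%), TGACGTCA (1.55%), TGATGCAAT (0.167%), the PPAR response element of direct repeats (0.0335%) and the palindromic glucocorticoid response element (0.00913%). The Fgf7 window held CCAAT at -53 to -49 from the start and no other match. The Vegfb window held GGGCGG 4 times and the Vegfc window 2 times. The Fgf21 window held TATAAA at -28 to -23, GGGCGG 3 times, ACGTG on both strands within one CACGTG overlapping a GGGCGG, and TGATGCAAT at -140 to -132. TGATGCAAT, a form of the composite element bound by C/EBP and ATF factors, was added to the search after the Fgf21 sequence had been read. These matches describe letters and say nothing of binding in these cells. RefSeq promoter entries were matched for 29 of the 38 members.

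Fgf7, which encodes keratinocyte growth factor and is made by stromal cells, had levels of -3.19, 0.05 and 1.53 on days 2, 8 and 20, or intensities of 72.7, 657 and 2672. Each later day was higher than the one before. Day 8 lay 3.23 ± 0.14 (technical SD) above day 2, a 9.41-fold difference at percentile 98.0 of the measured genes, and day 20 lay 1.48 ± 0.08 above day 8 (2.79-fold, percentile 98.6). From day 2 to day 20 the difference was 26.3-fold. Fgf10, its close relative and another ligand of the FGFR2b isoform, went the other way. Its levels, each the mean of 10 spots, were -0.22, -1.40 and -1.61, with spot SDs of 0.05, 0.05 and 0.07. Day 8 was 2.27-fold lower than day 2 (-1.18 ± 0.03), and day 20 differed from day 8 by -0.21 ± 0.03. The first difference was -0.98 with normexp, just under 2-fold. No spot of either later day reached the lowest spot of day 2.

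Fgf1, the acidic FGF that can bind every FGF receptor and is known in fat as a PPARγ target, was at background on day 2 (-7.97, not well above it) and had levels of -3.41 and -0.98 on days 8 and 20. Day 8 was thus at least 4.86-fold above day 2, and day 20 at least 26.3-fold. With normexp these bounds were 1.95-fold and 6.24-fold. The measured step from day 8 to day 20 was 2.44 ± 0.17 (5.41-fold), at percentile 99.8 of all measured genes. A second Fgf1 probe was not well above background on any day (-6.97, -7.79 and -6.45). Fgf2, the basic FGF, stayed close to the detection limit at -6.27 (not well above background), -5.42 and -5.50, and days 8 and 20 differed by -0.08 ± 0.15. Of its 10 spots, 0 were well above background on day 2 and 7 on each later day. Fgf18, a ligand best known from bone and cartilage, was detected on all days at -3.82, -4.10 and -4.21, and no step reached 2-fold.

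Fgf21, the hormone-like FGF that acts on fat cells through FGFR1 and β-Klotho, was detected on day 2 alone. Its levels were -2.95, -7.95 and -8.08, or intensities of 85.6, 2.57 and 3.42. Day 8 was at least 7.0-fold below day 2 and day 20 at least 7.78-fold, bounds set by the lowest level well above background on the later array. With normexp they were 2.09-fold and 2.74-fold, and under spike-in scaling that of day 20 was 4.71-fold. Klb, which encodes β-Klotho, lay on the opposite side, at -2.50 on day 2, 1.20 on day 8 and 1.87 on day 20. Its difference between days 8 and 2 was 3.70 ± 0.12. Kl, the coreceptor of FGF23, was not well above background on any day. Fgf15, the remaining hormone-like FGF of the mouse, was not detected.

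Fgf23, a phosphate-regulating hormone best known from bone, read 2.77, 3.02 and 1.78 by its brighter probe. Day 20 was 2.36-fold below day 8 (-1.24 ± 0.08), and the difference was -0.57 under spike-in scaling. Its second probe was not well above background on any day, with levels between -7.81 and -7.63, so the Fgf23 values rest on 1 of 2 discordant probes. Fgf8 was detected on day 2 alone (-4.99, then -5.98 and -5.54), with a bound of 1.70-fold on day 8, or 1.03-fold with normexp. The log2 bound on day 20 was -0.55, and 0.17 under spike-in scaling. Its other 2 probes were not well above background on any day and differed by 0.74 ± 0.62 and 0.59 ± 0.64 between days 8 and 2. The intracellular FGFs, which bind sodium channels and are not secreted, were dim. Fgf11 read -5.08, -5.12 and -5.33, and its steps were smaller than their technical SDs. Fgf14 read -4.60, -4.32 and -5.57, with day 20 2.37-fold below day 8 (-1.25 ± 0.40), by 1 of 3 probes, while the other 2 were never well above background. This difference was below 2-fold in 4 of 8 alternatives, at -0.56 with normexp, -0.58 under spike-in scaling, -0.88 with cyclic loess and -0.98 with quantile normalization.

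The FGF receptor genes Fgfr1, Fgfr2 and Fgfr3 were all lower on day 8 than on day 2 and differed little between days 8 and 20. Fgfr1, the main FGF receptor gene of fat cells, read 5.51, 4.31 and 4.25, a difference of -1.20 ± 0.07 (2.30-fold) and then -0.06 ± 0.07. Fgfr2 read 0.15, -1.16 and -1.25, a difference of -1.30 ± 0.08 (2.47-fold) and then -0.09 ± 0.09. Fgfr3 read 0.46, -1.15 and -1.07, a difference of -1.61 ± 0.08 (3.05-fold, percentile 5.10) and then 0.08 ± 0.09. The first Fgfr1 difference fell short of 2-fold with quantile normalization (-0.98) and with the mean over its probes (-0.90). The first step was larger than its technical SD for each of these genes, and the second was not for Fgfr1 and Fgfr3. Scaled on spike-in probes, day 20 lay above day 8 by 0.61, 0.58 and 0.75 for Fgfr1, Fgfr2 and Fgfr3, beside the median of 0.62 for all genes. Under that scaling day 20 lay below day 2 by less than 2-fold, at -0.53, -0.67 and -0.81.

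Other probes of these receptors lay in the same direction on day 8 by differing amounts. The 2 other Fgfr1 probes differed by -1.18 and -0.32 between days 8 and 2, the second Fgfr2 probe, a mean of 10 spots, by -1.49, and the second Fgfr3 probe by -0.63 ± 0.32. Fgfr4, a receptor gene best known from liver, was undetected on day 2 (-5.67) and read -4.63 and -4.28 on days 8 and 20. Its difference of 2.06-fold between days 8 and 2 is the plain difference to a value just above the day 2 limit, with a technical SD of 0.44 on the log2 scale. The other Fgfr4 probe ran the other way, at -5.28, -5.38 and -6.25, and was not well above background on day 20. The direction for Fgfr4 therefore depends on the probe, and the brighter probe's difference between days 8 and 2 was 1.25-fold with normexp.

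**Figure D3:**
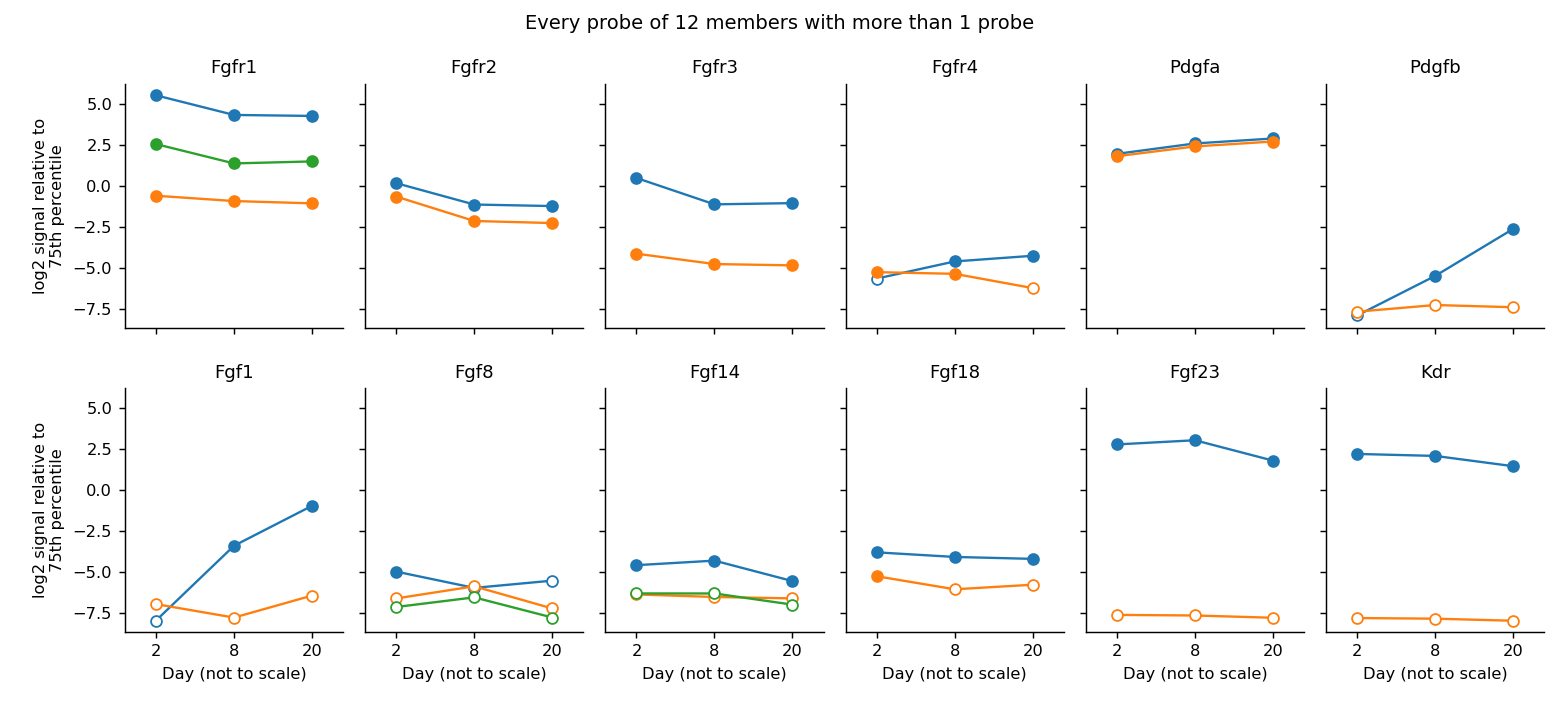
Levels of every probe of 12 members with more than 1 probe on days 2, 8 and 20 (log2 signal relative to the array's 75th percentile), with 1 colour per probe and open points where the probe was not well above background. Both Pdgfa probes were higher on each later day and all probes of Fgfr1, Fgfr2 and Fgfr3 were lower on day 8 than on day 2, while Fgf1, Fgf23, Kdr and Pdgfb each had 1 probe that was not well above background on any day.

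Pdgfa, the ligand gene that acts through PDGFRα, was detected by both of its probes. The brighter probe read 1.94, 2.57 and 2.87, and the steps were 0.63 ± 0.07 and 0.30 ± 0.08, or 1.91-fold from day 2 to day 20. The second probe gave 0.60 and 0.30 for the same steps. Pdgfb, whose product also binds PDGFRβ, was undetected on day 2 (-7.92) and read -5.51 on day 8, just above the detection limit, and -2.64 on day 20. Day 20 was 2.87 ± 0.37 above day 8 (7.30-fold, percentile 99.9) and at least 8.31-fold above day 2. With normexp background correction of the raw signals the first of these differences was 0.91, below 2-fold, the bound was 2.32-fold, and the second Pdgfb probe was not well above background on any day. Pdgfc, a ligand activated by proteolysis, stayed at 0.12, 0.00 and 0.30, with no step of 2-fold.

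The PDGF receptor genes differed in their course. Pdgfrb, a marker of mural cells and of some adipocyte precursors, read -1.73, 0.80 and 1.62 and was higher on each later day. Day 20 lay 0.83 ± 0.08 above day 8 and 3.35 ± 0.09 (10.2-fold) above day 2. Pdgfra, a marker of fibroblasts and adipocyte precursors, read -0.36, -0.28 and 0.38 as the mean of 10 spots with a spot SD of 0.05 on each day. Its difference was 0.09 ± 0.02 between days 8 and 2 and 0.66 ± 0.03 (1.58-fold) between days 20 and 8, where the lowest spot of day 20 lay above every spot of day 8. Neither receptor gene reached 2-fold between days 8 and 20, and both did under spike-in scaling, with differences of 1.33 for Pdgfra and 1.5 for Pdgfrb. Because the samples are bulk RNA, fewer cells of a type and less RNA per cell cannot be told apart.

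Among the VEGF-type ligands, Vegfb, a ligand of FLT1 abundant in oxidative tissues and fat, read 1.22, 3.27 and 3.27. It was 4.15-fold higher on day 8 than on day 2 (2.05 ± 0.07, percentile 95.1), and days 20 and 8 differed by 0.00 ± 0.07. Vegfc, the lymphatic growth factor, read 0.20, 1.37 and 2.60, with steps of 1.17 ± 0.07 (2.25-fold) and 1.23 ± 0.08 (2.34-fold). Vegfb thus differed over the first interval alone, and Vegfc differed by at least 2-fold over both. Pgf, placental growth factor, was dim at -4.90, -4.56 and -5.20, and its steps of 0.33 ± 0.36 and -0.63 ± 0.38 were less than 2-fold.

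Flt1, which encodes VEGF receptor 1, read -4.29, -3.66 and -2.59. Its steps were 0.63 ± 0.25 and 1.07 ± 0.20 (2.09-fold), and day 20 was 3.25-fold above day 2. With normexp background correction the second step was 0.38 and the difference between days 20 and 2 was 0.68, both below 2-fold. Kdr, which encodes VEGF receptor 2, read 2.19, 2.06 and 1.44, with day 20 1.54-fold below day 8 (-0.63 ± 0.08), and 0.04 above it under spike-in scaling. A second Kdr probe, printed 10 times, had 0 of 10 spots well above background on each day, with means between -7.99 and -7.82. The level of Kdr therefore rests on 1 of 2 discordant probes.

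Of 17 endothelial markers, 6 were detected on some day (Pecam1, Emcn, Vwf, Mmrn2, Egfl7 and Eng). The other 11 were not well above background on any day: Cdh5, Tek, Tie1, Cldn5, Esam, Erg, Sox17, Sox18, Robo4, Lyve1 and Prox1, among them the defining genes Cdh5 (VE-cadherin) and Tie1. The summed linear signal of all 17 was 1.21, 3.47 and 2.38 times the array's 75th percentile on days 2, 8 and 20. Mmrn2 and Egfl7 were 2.15 and 1.63 higher on day 8 than on day 2. The cells come from 1 clonal line, and the relation of these markers to the Flt1 and Kdr values was not tested. Of 10 mural cell markers, 5 were detected. Cspg4, Rgs5, Abcc9, Kcnj8 and Cnn1 were not, and the summed signal was 13.9, 15.6 and 29.4. Acta2 (smooth muscle actin), Des (desmin) and Notch3 were higher on day 8 than on day 2 by 5.65, 3.52 and 2.07, the direction of Pdgfrb. Mcam, which made up most of the day 2 sum with a level of 3.77, differed the other way on day 8 (-0.46 ± 0.07). Acta2 and Notch3 were higher on day 20 than on day 8 by 1.82 and 1.19. The relation of these markers to the Pdgfrb values was not tested.

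Of 10 preadipocyte and fibroblast markers, 9, 10 and 10 were detected on days 2, 8 and 20, with summed signals of 220, 166 and 299. Between days 2 and 8, Lum, Dcn and Fap were higher by 2.71, 1.86 and 1.83, the direction of Fgf7 and Pdgfrb, and S100a4 (-2.07) and Ly6a (-1.01) were lower. Between days 8 and 20, Ly6a, Thy1 and Dlk1 were higher by 2.58, 1.81 and 1.47, and Cd34 was lower, at -1.17. Pdgfra, Fgf7 and Fgf1 were higher over the same interval, and the part of these markers' cells in those values was not tested. The summed signal of 12 adipocyte markers was 829, 1860 and 1287. Of 9 macrophage markers on the array, 5 were detected on some day, with summed signals of 9.08, 11.6 and 6.29.

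Coreceptors and binding proteins, a list of 20 genes, had 16 genes measured on days 2 and 8. Of these, 7 lay 2-fold or more above day 2 and 4 below it, against 13.8% and 12.9% of all measured genes, and the list had a median of 0.53 beside -0.06 for all genes. With the stricter filter on dim probes that median was 0.17. Flrt3 and Flrt2, which encode FGFR-binding membrane proteins, were higher by 4.02 and 2.43, and Cd44, which encodes a hyaluronan receptor, was lower (-2.22). Between days 8 and 20, 3 of 17 were higher and 0 lower. These were Gpc1, a heparan sulfate proteoglycan gene, at 1.28, Nrp2, a VEGF-C coreceptor gene, at 1.15 and Sdc3 at 1.12. Gpc1 and Nrp2 had been lower on day 8 than on day 2, at -1.77 and -2.22, and Sdc3 higher, at 2.10. Day 20 differed from day 2 by -0.49 for Gpc1, -1.07 for Nrp2 and 3.22 for Sdc3. The list's median between days 8 and 20 was 0.51 beside -0.05, and the shares of all genes for that interval were 3.58% and 1.74%. These all-gene shares stand beside the counts of each list that follows.

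Heparan sulfate genes shape the chains that FGFs bind. Of 11 measured between days 2 and 8, 0 were higher and 2 lower (13.8% and 12.9% of all genes), Sulf2 (-1.61) and Glce (-1.23). Sulf1, the gene of the other extracellular sulfatase, was detected on days 8 and 20 only, at least 3.54-fold above day 2 on day 8. Sulf2, which encodes an extracellular sulfatase that trims 6-O-sulfates, lay on the other side between days 8 and 20 (2.72 ± 0.09). Hs6st2, a 6-O-sulfotransferase gene, was 1.05 higher over that interval, and these were the 2 of 12 genes at least 2-fold apart. The median was 0.01 for the first interval and 0.25 for the second.

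Adaptors and kinases of the MAP kinase, PI3K and PLCγ routes made up 34 genes. Of 29 measured between days 2 and 8, where 13.8% of all genes were higher and 12.9% lower, 2 were higher, Gab1 (2.14) and Pik3r2 (1.05), and 3 lower, among them Pik3r1 (-1.03), with a median of -0.02. Of 29 measured between days 8 and 20, 0 were 2-fold apart in either direction. Under spike-in scaling 6 were higher, where 2127 of all 12321 measured genes were. Among 20 feedback inhibitors and immediate targets of the pathway, 15 were measured on days 2 and 8, with 1 higher and 5 lower (13.8% and 12.9% of all genes) and a median of -0.63. With normexp 0 were higher and 3 lower, and the median was -0.32. Spry1, which encodes a Sprouty inhibitor induced by FGF signalling, was lower (-2.76), as were Dusp4 (-1.58), an ERK phosphatase gene, Fosl1 (-1.42) and Ier2 (-1.23). Between days 8 and 20 the median was 0.37, and 2 of 16 were higher, Ccnd1 (1.94), which encodes cyclin D1, and Il17rd (1.64), which encodes the FGF antagonist SEF.

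Of 22 other angiogenic ligands and receptors, 17 were measured on days 2 and 8, with 9 higher and 1 lower (13.8% and 12.9% of all genes) and a median of 1.36. That median was 0.79 with normexp, 0.56 with no filter and 0.51 with the stricter filter on dim probes. Thbs1 and Thbs2, which encode the angiogenesis inhibitors thrombospondin 1 and 2, were higher by 4.59 and 2.71. Apln, which encodes apelin, was higher by 3.50 and Angpt2, which encodes a TIE2 ligand, by 3.28. The 1 lower gene was Efnb2, at -2.15. Between days 8 and 20, 4 of 17 were higher and 0 lower, with Thbs1 at 2.20, Slit2 at 2.00, Sema3f at 1.60 and Thbs2 at 1.33, and the median was 0.04. Under spike-in scaling the genes higher on day 20 than on day 8 numbered 10 of 17 coreceptors and binding proteins and 5 of 12 heparan sulfate genes. They numbered 9 of 16 feedback genes and 8 of 17 of these angiogenic genes. Among all genes 2127 of 12321 were higher under that scaling. Tie1, Tek and Robo4 belong to this list and to the endothelial markers.

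**Figure D4:**
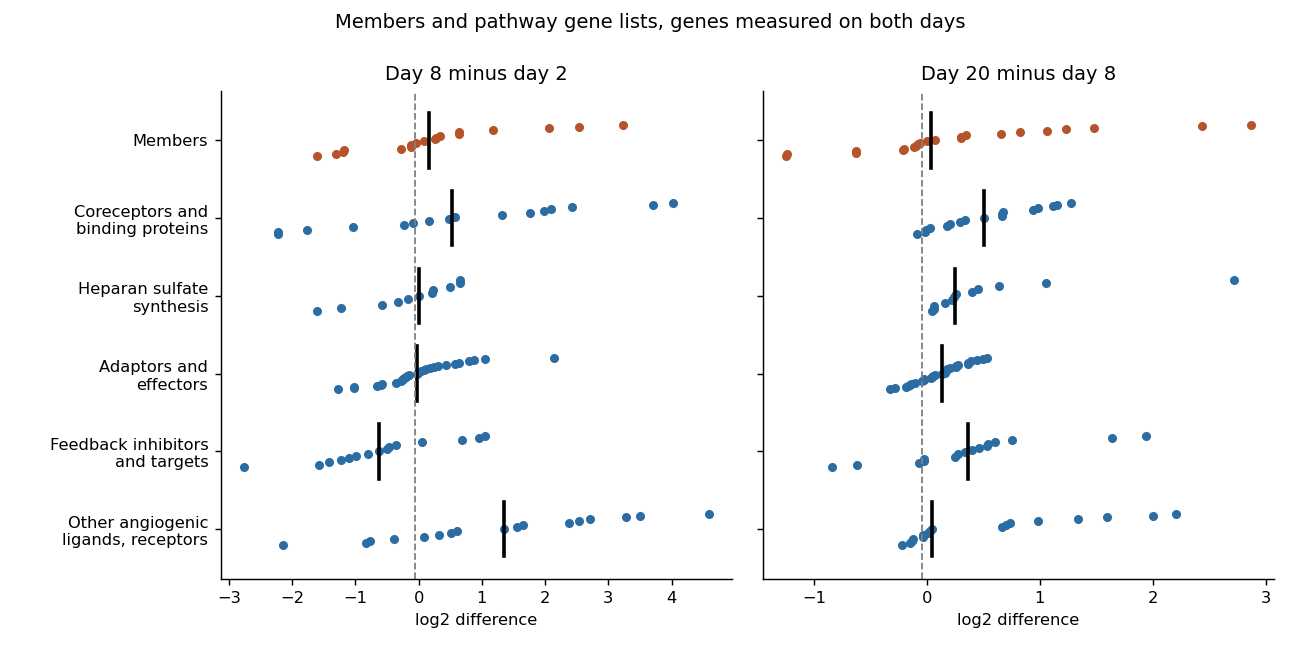
log2 differences of the members and of 5 pathway lists for genes measured on both days, day 8 minus day 2 (left) and day 20 minus day 8 (right), 1 point per gene, with black bars for medians and the dashed line for the median of all measured genes (-0.06 and -0.05). On the left the feedback genes have a median of -0.63 and the other angiogenic genes one of 1.36.

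**Figure D5:**
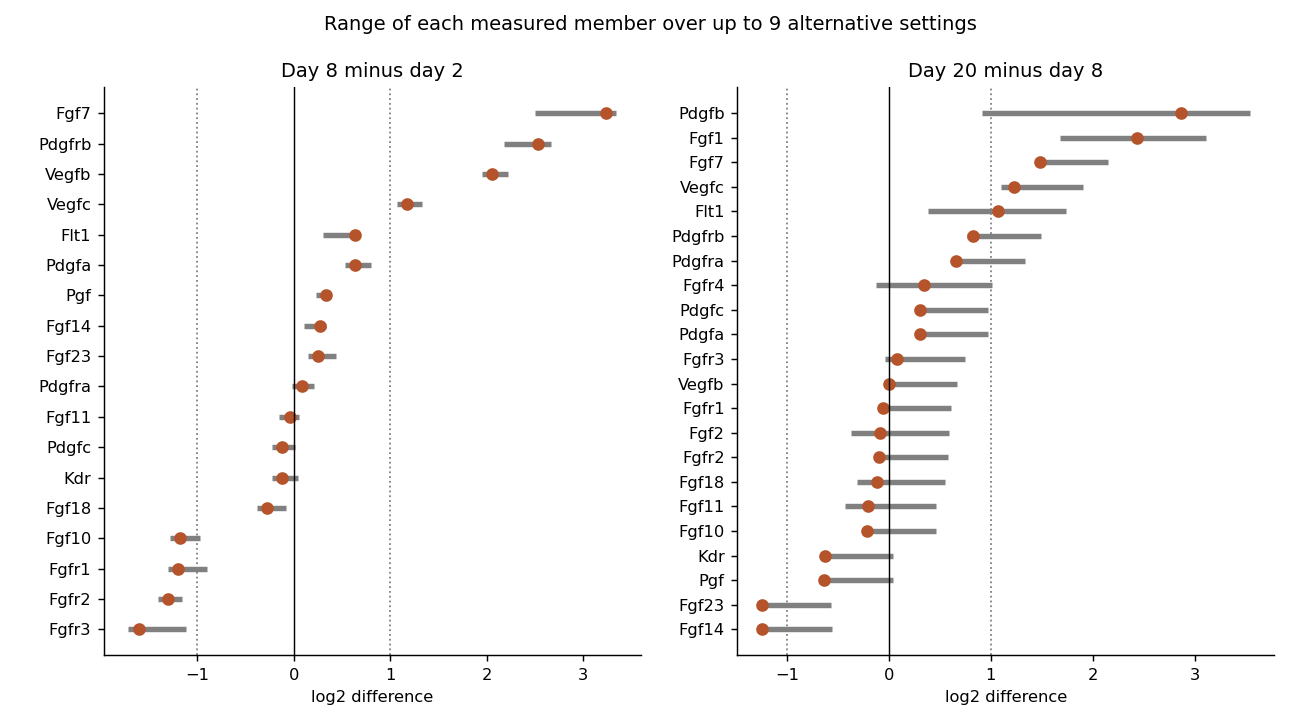
Range of each measured member's log2 difference over up to 9 alternative settings (grey bars) with the reported value (points), day 8 minus day 2 (left) and day 20 minus day 8 (right), dotted lines at 2-fold. The range for Pdgfb on the right runs from 0.91 to 3.54, and that for Fgf7 on the left from 2.50 to 3.34.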

How the data were processed

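The deposited intensity is each 1-colour spot's linear brightness. Per the submitters' processing notes, the scanner software was Agilent Feature Extraction 10.7.1.1. It background-corrected the processed intensity, per the file headers, and did not scale it between arrays. Deposited yes or no marks give detection, saturation, outliers and controls, per the file headers. In the series table, the deposited log2 value was log2 processed intensity plus 1 constant per array (-9.37, -9.31 and -9.86) within 0.01 for 100% of probes, with column medians of -4.80, -4.69 and -4.89. The arrays share 1 slide and 1 scan, per the file headers.

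Spots marked as control or outlier were dropped, repeated spots were averaged per probe, and 0 spots were saturated. Of 39429 non-control probes, 26581 were named through RefSeq accessions (GRCm38.p6) and 12848 were not. The array design uses another build, so gene coordinates are those of RefSeq. A gene took its brightest probe by the mean over arrays. A difference was measured where both days were well above background and counted from a log2 difference of 1. Otherwise the bright value was set against the dim value or the lowest detected level of that array, whichever was higher. Percentiles rank a difference among all measured genes. Levels of different probes served to pick the brightest and were not compared as transcript amounts.

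Members and lists were chosen with earlier results of these data known. Every member is accounted for, and of each list up to 4 genes at least 2-fold apart are named per comparison, except 1 that is not reported here. Python 3.11.15 with pandas 2.3.3 was used, with limma 3.58.1 for normexp, quantile and cyclic loess alternatives, and the scripts were tested on simulated data.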

Additional observations from a re-analysis of the deposited data

How the results depend on the processing

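Of 24 member differences called at least 2-fold, 19 had a value under all 9 alternative settings and 5 under 8, since the stricter filter left out dim genes. All 24 kept their sign in the settings that gave a value, and 13 were at least 2-fold in each of those. Between days 8 and 2, the 4 higher members became 8 with no filter on dim probes. Between days 20 and 8, the 5 higher members became 3 with normexp on median signals, 8 with spike-in scaling and 2 with a stricter filter on dim probes. The 2 lower members became 1 with normexp, 1 with quantile normalization, 1 with cyclic loess, 1 with the stricter filter and 0 with spike-in scaling. Between days 20 and 2, the 5 higher members became 8 with no filter, and the 4 lower became 0 with spike-in scaling. Other counts of measured members stayed within 1.5 times, including those from the series table values and from the mean over probes of a gene. Spike-in scaling used 22 probes and moved day 20 against day 8 by 0.67, and the cause was not tested. Normexp was run on median signals, a choice made after seeing the data, because the mean signal is not used here. Its offset of 50 lies near or above the intensities of dim members, so their smaller normexp differences cannot be credited to background correction alone. No paired analysis was possible because each day has 1 array.

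Dim members are the least certain: the technical SD between days 20 and 8 was 0.37 for Pdgfb and 0.40 for Fgf14, against 0.08 for Fgf7. The spread between cultures is unknown.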

Other observations

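Several members are neighbours in the genome. Pdgfra and Kdr lie on chromosome 5 with Kit between them, and their differences between days 20 and 8 were 0.66 and -0.63. Fgf6 and Fgf23 are adjacent on chromosome 6, and Fgf6 was not well above background on any day. Fgf3, Fgf4 and Fgf15 follow each other on chromosome 7, and none of these was well above background on any day.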
